A study of Homo sapiens with 8 samples.

Results

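MAF and MYC are transcription factor genes that drive plasma cell tumours, and both were measured here in 4 multiple myeloma cell lines with and without knockdown of MMSET I. The 2 genes were chosen as all rows of the deposited table that carry either symbol in the platform annotation. Each had 1 row, out of 14812 genes with a named row, of which 11109 were bright enough to be tested. Human t(4;14) lines KMS11, KMS18, KMS34 and OPM2 each gave 1 control array and 1 array labelled MMSETI knockdown, so there were 4 control and 4 knockdown arrays. Per the labels all cultures, controls included, carried t(4;14) and received lentivirus with 8 µg/mL polybrene, and RNA was taken 48 h after the virus was removed, whereas the series text speaks of 72 h of shRNA and names KMS11 alone. What the control virus carried, and which sequences the shRNA had, is not stated in the sources at hand. Each line is a single culture pair, so p-values for the knockdown measure the spread over lines, and a difference between lines cannot be told apart from one between cultures.

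MAF encodes a large MAF protein, a basic leucine zipper factor that binds as a dimer to MAF recognition elements. In a subset of myelomas a translocation brings MAF under immunoglobulin heavy chain enhancers, and the gene is also expressed in part of t(4;14) myelomas, where MEK-ERK signalling has been linked to it. MYC encodes a basic helix-loop-helix leucine zipper factor that pairs with MAX at E-boxes and drives ribosome production, metabolism and cell growth, and MXD proteins compete with it for MAX. In plasma cell tumours MYC is a frequent target of rearrangement and works together with IRF4. The comparisons asked how much MAF and MYC RNA each line carried and whether MMSET I knockdown changed it. An array reads the average of a culture, so fewer expressing cells and less RNA per cell cannot be told apart.

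Facts that bear on all results are few. The 8 arrays had nearly equal quartiles, with medians of 49.3 to 53.5, and arrays of 1 line correlated at 0.991 to 0.993 across genes. Of 13 plasma cell markers 9 had a named row and 8 passed the filter on dim genes. SDC1 was at 844 to 1112 and MZB1 at 778 to 2394 on the 8 arrays, whereas POU2AF1 stayed at 70.7 to 88.4. CD38 was at 50.6 and 83.2 in KMS11 and at 168 to 416 elsewhere. Of 3 B cell markers measured, 0 were called for the knockdown, and CR2 alone had an unadjusted p under 0.05 (1 of 3, against 8.41% of all genes). CR2 was higher in the knockdown array of each line. The sum of the 3 ran from 164 to 275 in control and 172 to 332 in knockdown arrays, of which CR2 itself had 35.8 to 229. NSD2, the gene that encodes MMSET, had a log2 difference of -0.18 between knockdown and control and did not pass the test over all genes (limma, adjusted p = 0.472). It was lower in 4 of 4 lines, and which MMSET isoforms its row covers is not stated in the sources at hand. GLO1, named in the series title, fell by 0.76 (limma, adjusted p = 0.00142) and was lower in 4 of 4 lines.

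MAF differed strongly between the lines. Its intensity was 1158 in the control and 1424 in the knockdown array of KMS11, 414 and 379 in KMS34, 166 and 173 in OPM2, and 72.2 and 54.2 in KMS18. The 2 arrays of a line always lay together, and no line overlapped another. The geometric mean of the 2 arrays was 20.5-fold higher in KMS11 than in KMS18, 4.36 log2 units. The control arrays alone spanned 16.0-fold and the knockdown arrays alone 26.3-fold. The moderated F test between lines passed (limma, adjusted p = 4.33e-10), as it did for 75.7% of all genes tested, so passing alone says little of MAF. The width of its range says more, since only 18 of the 11109 genes (0.162%) had a wider one, against a median of 0.516 log2 units.

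**Figure D1:**
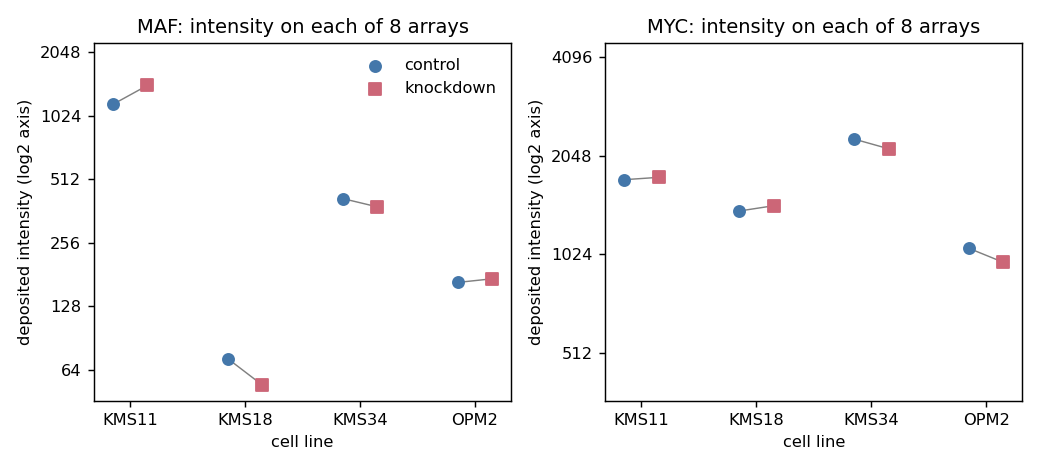
Deposited intensity of MAF (left) and MYC (right) on each of the 8 arrays, on log2 axes, by cell line. Circles are control arrays, squares are knockdown arrays, and a grey line joins the arrays of a line. MAF runs from 54.2 in KMS18 to 1424 in KMS11 and MYC from 966 in OPM2 to 2299.5 in KMS34.

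Neighbours in the order of MAF levels were set against each other in the same fit, with p-values adjusted over all genes for each of 6 pairs of lines. KMS11 stood above KMS34 by 1.70 log2 units (standard error 0.136, limma adjusted p = 8.52e-07), where 42.2% of genes tested were called. KMS34 stood above OPM2 by 1.23 (adjusted p = 1.18e-05, against 49.9% of genes called), and OPM2 above KMS18 by 1.44 (adjusted p = 3.33e-06, against 38.9%). MAF was also called between KMS11 and KMS18 (56.5% of genes), KMS11 and OPM2 (54.7%) and KMS18 and KMS34 (47.5%). The lowest line, KMS18, lay close to the limit of the filter on dim genes (an intensity of 46.7), and the part of background signal in its level was not tested.

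The knockdown difference of MAF went up in some lines and down in others. It was 0.30 on the log2 scale in KMS11 and 0.06 in OPM2, against -0.13 in KMS34 and -0.41 in KMS18. In intensity these are changes of 23.0%, 4.05%, -8.62% and -25%. The mean intensity was 453 ± 492 (SD, n = 4) in control and 507 ± 626 (SD, n = 4) in knockdown arrays, with nearly all of that spread between lines. No line has a second pair of arrays, so none of these has a test of its own. The mean over 4 lines was -0.05, with a standard error of 0.096 and a 95% interval from -0.26 to 0.16, and MAF was not called (limma, adjusted p = 0.927). As a change in intensity that interval runs from -16.3% to 11.9%. The exact two-sided permutation test within lines gave p = 0.75, where 0.125 is the smallest it can give. Without KMS18 the mean difference was 0.075, so its direction rests on the line in which MAF is dimmest. The knockdown called 0.117% of all genes, 0.0990% lower and 0.0180% higher. The residual SD of MAF after line and knockdown was 0.213 log2 units, and 331 of 11109 genes (2.98%) had a larger one, against a median of 0.0911.

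MAF lies on chromosome 16 in a stretch where the array also measured WWOX, a gene for an oxidoreductase with WW domains, and CMIP, which encodes an adaptor protein. CMIP followed the order of MAF, with 1201 in the control and 1199 in the knockdown array of KMS11, 679.9 and 610 in KMS34, 514 and 473 in OPM2, and 361 and 315 in KMS18. Its line means spanned 3.56-fold. WWOX did not follow, with a geometric mean of 76.1 in KMS11, 91.8 in OPM2, 99.0 in KMS34 and 115 in KMS18, so it was highest where MAF was lowest. NUDT7, a gene for a peroxisomal hydrolase of coenzyme A, was highest in KMS34 at 240.4 and lowest in KMS18 at 135. VAT1L spanned only 1.17-fold. Of these 4 genes 0 were called for the knockdown by limma and 0 had an unadjusted p under 0.05, with CMIP at -0.12 and below 0 in 4 of 4 lines.

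The promoters of MAF and CMIP are shown because the genes lie on the same chromosome arm, had the same order over the lines and were found to share a motif. Both hold 1 copy of TGACGTCA, the palindromic cAMP response element, printed in capitals. It starts 45 bases before the start of MAF and 97 before this start of CMIP. CMIP has 2 annotated windows, of which 1 holds the motif, and MAF has 1. The sequences are the 250 bases before an annotated start, from RefSeq on GRCh38.p14.
MAF, chr16:79600738-79600987, minus strand: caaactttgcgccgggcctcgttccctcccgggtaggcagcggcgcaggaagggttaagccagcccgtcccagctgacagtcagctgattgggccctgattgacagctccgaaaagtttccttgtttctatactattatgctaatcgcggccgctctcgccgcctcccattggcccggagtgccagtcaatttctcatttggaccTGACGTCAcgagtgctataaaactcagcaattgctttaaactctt
CMIP, chr16:81444558-81444807, plus strand: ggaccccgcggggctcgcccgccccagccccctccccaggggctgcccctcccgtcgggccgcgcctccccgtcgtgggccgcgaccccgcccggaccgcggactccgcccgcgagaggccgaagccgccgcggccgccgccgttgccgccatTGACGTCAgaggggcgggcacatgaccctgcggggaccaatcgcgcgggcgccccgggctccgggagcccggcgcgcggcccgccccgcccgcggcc
Searched on both strands, TGACGTCA was in 1.65% of 35116 promoter windows of this length and in 3.06% of 8530 tested genes with a window. A match describes the letters, not binding in these cells.

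Other genes of the MAF family and its dimer partners gave 15 tested genes beside MAF, of which 10 differed between lines in the F test (66.7%, against 75.7% of all genes). MAFA, a large MAF gene, spanned 1.27-fold, between 105 and 146 on the 8 arrays. NRL, another large MAF gene, of the retina, spanned 1.04-fold (adjusted p = 0.957). The small MAF genes, which lack an activation domain, were MAFF, at 75.7 to 99.6, and MAFG, which was highest in KMS11 at 239.7 and at 135 to 160.0 in the other lines. MAFK had no named row and was not analysed here. Of the 5 large and small MAF genes measured, MAF alone spanned more than 2-fold between lines.

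The AP-1 partners of the JUN group had wider line ranges than those of the FOS group. JUNB ranged from 195 in the OPM2 knockdown array to 752 in the KMS34 control array, and JUN from 139.8 to 497 between the same arrays. JUND was highest in KMS11 at 683 and lowest in OPM2 at 321. FOS and FOSB, the partners that signalling induces, spanned 1.23-fold and 1.34-fold, and FOSL1 and FOSL2 did not pass the F test (adjusted p = 0.337 and 0.341). NFE2L3, a cap'n'collar factor that pairs with small MAF proteins, spanned 8.68-fold, from 1124 in KMS18 to 129.6 in OPM2. Its relatives NFE2L1 and NFE2L2 spanned 2.60-fold and 1.17-fold, and ATF3 spanned 2.38-fold with its maximum in KMS34. For the knockdown 0 of the 15 were called by limma, with 1 at an unadjusted p under 0.05 (6.67%, against 8.41% of all genes). That gene was JUNB, at -0.17 and lower in 4 of 4 lines (adjusted p = 0.513). The median of the 15 was -0.008, against -0.003 over all genes tested.

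Genes linked to MAF in myeloma were compared next. Of 18 listed, 11 had a named row and 8 were tested, with SPP1, IL10 and IL4 below the filter. ITGB7 and NUAK1 were among those without a named row. The filter took the mean over arrays, and IL10 was at 73.8 and 68.4 in KMS11, against 33.9 to 43.8 elsewhere. SPP1 was at 52.5 and 47.1 in KMS18, and at 44.6 and 32.6 in KMS11. The list mixes genes that MAF is known to activate (CCND2 and CCR1) or that are high in myelomas with MAF translocations (DEPTOR, CX3CR1, RND3) with looser links (TLR4, IL21R, CD44). Of the 8, 7 differed between lines (87.5%, against 75.7% of all genes), 4 were highest in KMS11 (50%, against 27.8%) and 4 were lowest in KMS18 (50%, against 25.5%). The median range was 1.46 log2 units, against 0.516 over all genes.

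CCR1, a chemokine receptor gene, was at 446 and 569 in KMS11, 481 and 499 in OPM2, 276 and 279 in KMS34, and 56.3 and 78.0 in KMS18. It shared the ends of the MAF order, but OPM2 had a geometric mean of 490 beside 504 in KMS11, although MAF was 7.58-fold lower there. CCND2, which encodes cyclin D2, had a like order on its brighter row, with a geometric mean of 1093 in KMS11, 983 in OPM2, 824 in KMS34 and 557 in KMS18. A second, dimmer row of CCND2 was also highest in KMS11 and lowest in KMS18. DEPTOR, an inhibitor of mTOR, stood at 1791 in KMS34, 1511 in KMS11, 478 in OPM2 and 402 in KMS18. It separated the MAF-higher lines KMS11 and KMS34 from OPM2 and KMS18.

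RND3 was at 72.6 and 102 in KMS11 and at 74.1 and 84.8 in KMS34, against 43.0 and 40.0 in KMS18 and 43.1 and 34.3 in OPM2. The values in KMS18 and OPM2 lay below the limit of the filter on dim genes (46.7). The part of background signal in them was not tested. CX3CR1, the fractalkine receptor gene, did not follow MAF and was highest in OPM2 at 102. TLR4, a receptor for bacterial lipopolysaccharide, did not differ between lines in the F test (adjusted p = 0.165). The cytokine receptor gene IL21R was highest in KMS34 at 881 and lowest in OPM2 at 95.5, and the adhesion receptor gene CD44 stood at 234 in KMS34 and at 69.5 to 84.9 in the other lines. DEPTOR, IL21R and CD44 were thus highest in the line with the most MYC, not the most MAF. Over the 8 arrays, Pearson's r with MAF was 0.84 for RND3 and DEPTOR, 0.79 for CCND2, 0.74 for CCR1, 0.61 for IL21R, 0.36 for TLR4, 0.33 for CD44 and 0.10 for CX3CR1. With MYC, r was as high for DEPTOR (0.84) and RND3 (0.83), and higher for IL21R (0.97) and CD44 (0.82). These r describe 4 lines with 2 arrays each, not 8 independent samples.

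**Figure D2:**
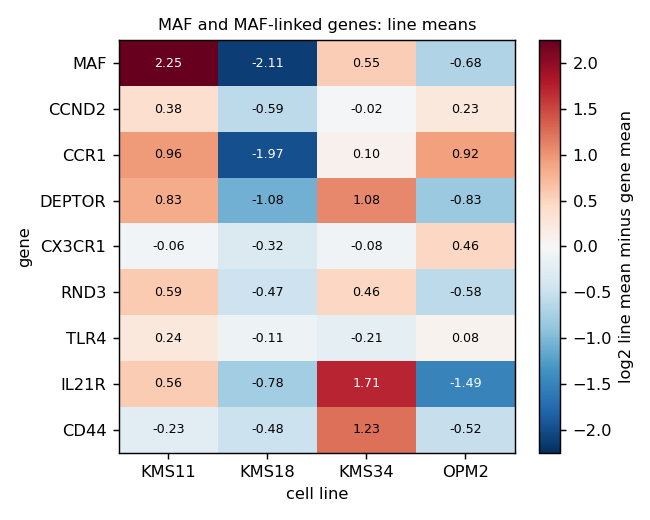
Line means of MAF and of 8 genes linked to it, as log2 differences from each gene's mean over the 4 lines (red above, blue below, the value in each cell). MAF, CCND2, CCR1 and DEPTOR all have their lowest cell in KMS18, while CD44 and IL21R peak in KMS34.

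RND3 is shown as the 1 of 6 MAF-linked genes with a promoter window that held the core of the MAF recognition element, TGCTGAC, on either strand. The match lies on the opposite strand, as GTCAGCA in capitals, and starts 204 bases before the start (RefSeq, GRCh38.p14). Both of the 2 windows of RND3 hold the motif, and 1 is printed.
RND3, chr2:150487696-150487945, minus strand: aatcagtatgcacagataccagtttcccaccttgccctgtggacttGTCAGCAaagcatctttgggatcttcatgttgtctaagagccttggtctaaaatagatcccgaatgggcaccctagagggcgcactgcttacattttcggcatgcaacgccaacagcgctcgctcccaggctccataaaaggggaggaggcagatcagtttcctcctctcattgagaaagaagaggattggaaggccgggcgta
Of 8530 tested genes with a window 3.95% held TGCTGAC. The window covers only the bases just before the start, and enhancers were not searched.

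For the knockdown 0 of the 8 MAF-linked genes were called by limma, with 2 at an unadjusted p under 0.05 (25%, against 8.41% of all genes, 4.15% lower and 4.26% higher). CCR1 had a difference of 0.22 (adjusted p = 0.511) and was higher in 4 of 4 lines, most in KMS18 (0.47) and KMS11 (0.35) and little in OPM2 (0.05) and KMS34 (0.02). CCND2 had one of -0.15 on its brighter row (adjusted p = 0.578) and was lower in 4 of 4. Its dimmer row was lower in KMS11 and KMS34 but higher in KMS18 (102 to 109) and OPM2 (164 to 173). In KMS18 CCR1 thus was higher while MAF was lower. Both were dim there, with CCR1 at 56.3 and 78.0 and MAF at 72.2 and 54.2, against a filter limit of 46.7. The largest single difference was that of TLR4 in KMS11, 0.79, where KMS34 had -0.32. The 8 genes had a median of 0.026.

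Regulators of MAF protein were measured for 6 of 10 listed genes, and 6 of 6 differed between lines in the F test (100%, against 75.7% of all genes). USP5, a deubiquitinase that stabilises MAF, was lowest where MAF was lowest, at 265 in KMS18 against 601 to 738 in the other lines. USP7, also on the list, was instead highest in KMS18, at 1592, and lowest in KMS34, at 1170. GSK3A and GSK3B, kinases that phosphorylate MAF and, in the case of GSK3B, mark MYC for degradation, had knockdown differences of -0.13 and -0.18 and were lower in 4 of 4 lines each. Neither passed over all genes (limma, adjusted p = 0.620 and 0.456). HERC4 and UBE2O, ubiquitin ligases for MAF, had differences of 0.11 and 0.01, and HERC4 was higher in 4 of 4 lines.

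Among genes that MEK-ERK signalling induces, the 3 with the widest line range were highest in OPM2. Of 15 tested, 12 differed between lines (80.0%, against 75.7%), 8 were lowest in KMS34 (against 21.4% of all genes) and 5 highest in OPM2 (against 25.4%). The 5 include FOSL1, which did not pass the F test. Highest in KMS11 were 4 of the 15 (26.7%, against 27.8% of all genes). DUSP4, a phosphatase that turns off ERK, was at 709.8 and 707 in OPM2, 184 and 209.5 in KMS11, and 78.4 to 86.6 in KMS18 and KMS34. DUSP6, another ERK phosphatase, was at 180.0 and 227 in OPM2, 130.2 and 127 in KMS18, 85.0 and 97.0 in KMS11, and 71.3 and 76.7 in KMS34. DUSP5 was low in KMS18, at 92.5 and 71.0, and highest in OPM2. With the knockdown 0 of 15 were called by limma and 1 had an unadjusted p under 0.05 (6.67%, against 8.41% of all genes). That was the ETS factor gene ETV5, at -0.17 and lower in 4 of 4 lines (adjusted p = 0.516), and DUSP6 had a difference of 0.15 (adjusted p = 0.618).

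MYC varied much less than MAF. Its intensity was 2299.5 in the control and 2148 in the knockdown array of KMS34, 1728 and 1757 in KMS11, 1386 and 1439 in KMS18, and 1066 and 966 in OPM2. As with MAF, no line overlapped another. The span was 2.19-fold, and 14.7% of genes tested had a wider one. The F test passed (limma, adjusted p = 1.90e-06, against 75.7% of all genes called). KMS34 stood above KMS11 by 0.35 log2 units (standard error 0.091, adjusted p = 0.00764), KMS11 above KMS18 by 0.30 (adjusted p = 0.0135) and KMS18 above OPM2 by 0.48 (adjusted p = 0.00105). The first of these pairs called 42.2% of genes, the second 56.5% and the third 38.9%. After quantile normalization KMS11 and KMS18 did not differ by the test (0.12, adjusted p = 0.280). The line orders of MAF and MYC differed, with KMS11 highest for MAF and KMS34 for MYC, and Pearson's r between them was 0.51 over the 8 arrays.

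For the knockdown, MYC had a narrower interval than MAF. KMS18 had 0.05 and KMS11 0.02, against -0.10 in KMS34 and -0.14 in OPM2, or 3.79%, 1.66%, -6.58% and -9.38% in intensity. The mean was -0.04, with a standard error of 0.064 and a 95% interval from -0.18 to 0.10 (limma, adjusted p = 0.897). As a change in intensity it reaches from -11.8% to 7.16%. The exact permutation test within lines gave p = 0.5. The mean intensity was 1620.1 ± 527 (SD, n = 4) in control and 1578 ± 500.2 (SD, n = 4) in knockdown arrays. The 4 differences had an SD of 0.094, against 0.301 for MAF. The residual SD of 0.0667 was below the median of all genes tested, 0.0911.

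**Figure D3:**
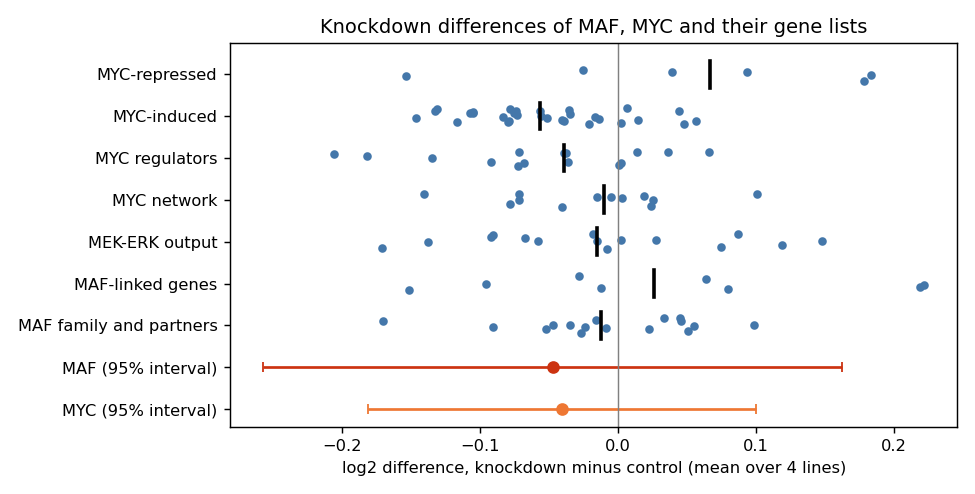
Knockdown minus control difference (log2, mean over 4 lines) of MAF and MYC, each with its 95% interval, and of the tested members of 7 gene lists, MAF and MYC included in their own. Each point is a gene and each black bar a list median. The intervals of MAF and MYC both include 0, and the median of MYC-induced genes lies at -0.056.

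The partners and rivals of MYC were measured for 11 genes beside MYC itself, and 8 of them (72.7%, against 75.7%) differed between lines. MAX, the partner of MYC and of the MXD proteins, was at 147 and 149.9 in OPM2 and 139.5 and 139 in KMS11, against 91.9 to 101 in KMS18 and KMS34. So MAX was highest in the line with the least MYC. MXD1, a MAX partner that opposes MYC, was at 209.7 and 212 in KMS11, 195 and 171 in KMS34, 107 and 95.1 in KMS18, and 77.4 and 80.6 in OPM2. MXI1 was, like MYC, highest in KMS34 and lowest in OPM2 on its brighter row, whereas its dimmer row was highest in KMS18. MGA, a repressor that also binds MAX, spanned 2.44-fold, from 361 in OPM2 to 148 in KMS18.

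Of the remaining network genes, MXD3 ran from 122 in OPM2 to 195 in KMS11 and MNT from 139 in KMS18 to 204 in KMS34. MLX, the partner of the glucose-sensing factors MLXIP and MLXIPL, spanned 1.38-fold and MLXIP 1.65-fold. MXD4, MLXIPL and ZBTB17, which encodes the MYC partner MIZ1, did not pass the F test (adjusted p = 0.244, 0.179 and 0.557). MYCN and MYCL had no named row and were not analysed here. For the knockdown 0 of the 11 were called by limma and 0 had an unadjusted p under 0.05, with differences from -0.14 for MLXIPL to 0.10 for MXD4. MLXIPL, at 54.5 in the control and 38.5 in the knockdown array of KMS11, lay below the filter limit on the latter.

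**Figure D4:**
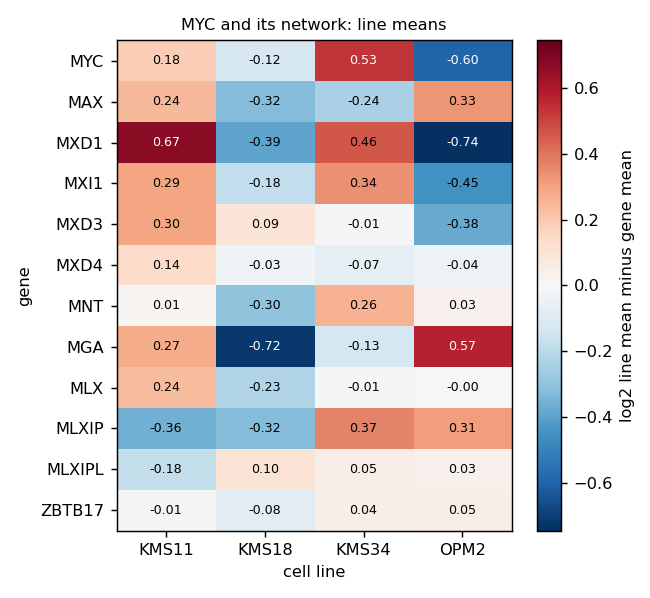
Line means of MYC and 11 genes of its network, as log2 differences from each gene's mean over the 4 lines (red above, blue below, the value in each cell). MXD1 and MXI1 have, like MYC, their lowest cell in OPM2, while MAX has its highest there.

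Regulators of MYC gave 15 tested genes, and 15 differed between lines (100%, against 75.7% of all genes). IRF4, which drives MYC in myeloma cells, was highest in OPM2, the line with the least MYC, with a span of 0.90 log2 units. PIM2, a kinase that stabilises MYC, was at 5667 and 5739 in KMS11 and 6564 and 5941 in KMS34, against 1939 to 2224 in KMS18 and OPM2. PIM1 was highest in KMS11 at 1074 and lowest in OPM2 at 175. IGF2BP1, which binds and stabilises MYC RNA, was at 300.1 and 295 in KMS11 and at 51.8 to 66.5 in the other lines. E2F1, a factor of the G1/S transition, ran from 698 in KMS11 to 234 in OPM2. In the knockdown comparison 0 of 15 were called by limma, with E2F1 (-0.21) and GSK3B (-0.18) at an unadjusted p under 0.05 (13.3%, against 8.41% of all genes) and an adjusted p of 0.456 each.

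The genes MYC is known to induce were described without a test of the list. Of 56 listed, 30 had a named row and all 30 were tested, mostly genes of the nucleolus and of ribosome assembly. Of these, 17 were highest in KMS34, the line with the most MYC (56.7%, against 23.1% of all genes), and 11 were lowest in OPM2, the line with the least (36.7%, against 23.8%). Both held for 6 of the 30 (20.0%, against 8.88%). In the F test 23 of the 30 differed between lines (76.7%, against 75.7%), and the 17 include genes that did not pass it. RRP12, a ribosome export factor, was at 702 and 614 in KMS34, 304 and 298 in KMS11, 265 and 238 in OPM2, and 147 and 143 in KMS18. PHB2, a prohibitin of mitochondria, was likewise highest in KMS34 at 1396 and lowest in KMS18 at 556. BOP1, of the large ribosomal subunit pathway, was highest in KMS18 at 497 and, like MYC, lowest in OPM2 at 196. In all, 10 of the 30 were lowest in KMS18 (against 25.5% of all genes) and 7 in KMS11 (against 29.3%). The span of the list was modest, with a median range of 0.572 log2 units, against 0.516 over all genes.

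With the knockdown 24 of the 30 had a mean below 0 (80.0%, against 51.6% of all genes), and 9 were below 0 in 4 of 4 lines (30.0%, against 8.76%). A mean below 0 was also common among plasma cell factors, at 14 of 20 (70.0%). It was found in 10 of 15 MYC regulators and 4 of 6 regulators of MAF protein (66.7% each). The MAF family had 8 of 15 (53.3%) and the MAF-linked genes 4 of 8 (50%). Below 0 in 4 of 4 lines were 0 of the 20 plasma cell factors and 3 of the 15 MYC regulators (20.0%). The median of the MYC-induced list was -0.056, and it was lowest in OPM2 (-0.113), then KMS11 (-0.053), KMS34 (-0.020) and KMS18 (-0.0098). Of its members 0 were called by limma and 1 had an unadjusted p under 0.05 (3.33%, against 8.41% of all genes). It was the replicative helicase gene MCM4, at -0.15 (adjusted p = 0.593). LYAR, a nucleolar regulator, had -0.13 and was lower in 4 of 4 lines (adjusted p = 0.618). Of 15 listed MYC-repressed genes 6 were tested, and 4 of these had a mean above 0 (66.7%, against 48.4% of all genes). Above 0 in 4 of 4 lines were 0 of the 6 (against 8.29% of all genes). TXNIP, which restrains glucose uptake, had 0.18 and the stress gene NDRG1 0.18, while GAS1 had -0.15. NDRG1 was slightly below 0 in KMS18 (-0.01) and KMS34 (-0.03). For this list too 0 were called by limma, and TXNIP and GAS1 had an unadjusted p under 0.05 (33.3%, against 8.41% of all genes). KLF6, a zinc finger factor, spanned 0.81 log2 units, from 592 in OPM2 to 337 in KMS18.

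An E-box CACGTG, the site MYC and MAX bind, was in the promoter window of 11 of 23 MYC-induced genes with a window (47.8%), against 936 of 8530 tested genes (11%). An E-box in any of a gene's windows was counted. A window of LYAR is shown, since LYAR is the member with the second lowest unadjusted p for the knockdown. Of its 2 windows, 1 for each annotated start, the one printed holds 1 E-box, in capitals, 64 bases before that start, and the other holds none (RefSeq, GRCh38.p14).
LYAR, chr4:4290022-4290271, minus strand: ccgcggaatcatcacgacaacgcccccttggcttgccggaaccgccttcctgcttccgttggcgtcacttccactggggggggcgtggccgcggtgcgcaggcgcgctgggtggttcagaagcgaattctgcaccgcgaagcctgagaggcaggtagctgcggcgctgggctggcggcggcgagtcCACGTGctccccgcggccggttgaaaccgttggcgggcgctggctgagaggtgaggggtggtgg
The E-box is its own reverse complement, so both strands give the same match.

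Genes beside MYC on its chromosome were measured for TRIB1, SQLE, WASHC5 and GSDMC. TRIB1, a pseudokinase gene, had, like MYC, its minimum in OPM2, but its geometric means in KMS34 (751) and KMS11 (742) were nearly equal. On the knockdown arrays TRIB1 was higher in KMS11 (818) than in KMS34 (762). It was at 340.0 in the OPM2 control and 551 in the OPM2 knockdown array, a difference of 0.70, and its mean difference over lines was 0.27, above 0 in 4 of 4 lines (limma, adjusted p = 0.491). SQLE, which encodes the squalene epoxidase of cholesterol synthesis, was highest in KMS18 at 1467 and lowest in KMS11 at 585, the reverse of MAF. GSDMC, a gasdermin gene, was at 79.8 and 64.8 in KMS11 and at 47.6 or less elsewhere, with a knockdown difference of -0.16 (adjusted p = 0.578). Outside KMS11 only the KMS34 control array (47.6) lay above the filter limit of 46.7, and the part of background signal was not tested. Of these 4 genes 0 were called by limma, and TRIB1 and GSDMC had an unadjusted p under 0.05 (2 of 4, against 8.41% of all genes).

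Plasma cell factors gave 20 tested genes, and 17 differed between lines (85.0%, against 75.7%). The MYB oncogene was highest in KMS18 at 428 and lowest in KMS34 at 91.1, and MEF2C was at 57.9 in KMS11 and 209 to 429 elsewhere. ETS1 was highest in KMS11 at 435 and lowest in KMS18 at 87.1. SPI1, which encodes PU.1, was nearly level, at 80.2 to 94.8. BCL6, the germinal centre repressor, was at 200.3 and 154 in KMS34, 109.8 and 86.7 in KMS11 and 46.6 to 55.4 in KMS18 and OPM2. Its knockdown difference was -0.18, below 0 in 3 of 4 lines (adjusted p = 0.593), and it was the 1 member with an unadjusted p under 0.05, while 0 were called by limma. Over all 11 lists 0 of 133 distinct tested genes were called and 12 had an unadjusted p under 0.05 (9.02%, against 8.41% of all genes).

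Finally, genes most like MAF or MYC were ranked by Pearson's r over the 8 arrays on the log2 scale, among 2052 genes whose line means spanned at least 1 log2 unit. With 4 lines many genes reach high values, and 3.51% of the ranked genes had an r above 0.95 with MAF and 2.88% with MYC. Most like MAF was AHCYL2 (r = 0.998), a homologue of an enzyme of the methionine cycle, followed by the kinase gene MARK1 (0.993), BRWD3 (0.993), the cathepsin gene CTSB (0.992) and CMIP (0.990). DHRS7B (0.989), TMEM143 (0.988) and the chromatin remodeller gene CHD3 (0.987) completed the 8. The span of AHCYL2 was 4.08-fold, far below that of MAF. Opposite were C21orf91 (-0.994), IGFBP7 (-0.992), SQLE (-0.973) and the kinase gene TEC (-0.973), which stood at 822 in KMS18 and 73.4 in KMS11. After quantile normalization 7 of the 8 most like genes were shared.

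Most like MYC was CD70 (r = 0.994), the ligand of CD27, with geometric means of 985 in KMS34, 542 in KMS11, 263 in KMS18 and 127 in OPM2. GPSM2 (0.993), ABHD10 (0.989), CASD1 (0.987), PIP4P2 (0.986), CEP41 (0.985), CCDC50 (0.983) and HEXA (0.983) followed. GPSM2, which orients the mitotic spindle, had nearly the same span as MYC, 2.23-fold. Least like MYC was DUSP6 (-0.987), then NIN (-0.979), MPC1 (-0.976) and SMCHD1 (-0.975). After quantile normalization 5 of the 8 most like genes were shared. None of these genes was called for the knockdown by limma, and TEC alone had an unadjusted p under 0.05 (0.0457).

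**Figure D5:**
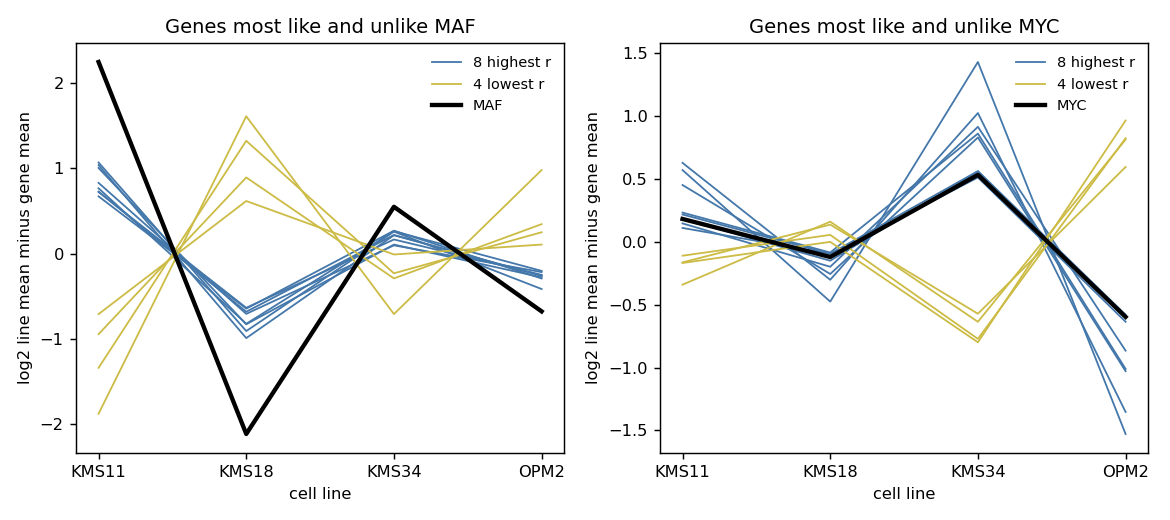
Line means (log2, minus each gene's mean over the 4 lines) of MAF (left) and MYC (right) in black, with the 8 genes of highest r in blue and the 4 of lowest r in yellow. The lines join cell lines only to guide the eye. MAF spans 4.36 log2 units, more than any gene drawn beside it.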

How the data were processed

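The authors deposited 1 intensity value per array and transcript cluster for 8 Affymetrix GeneChip Human Gene 2.0 ST arrays, analysed in GeneSpring per the series text. No source used here gives the background correction, normalization, summarization or version. The values run from 18.9 to 13166, too wide for a log scale, and were read as linear. Depth does not apply to arrays, and the number of arrays limits precision. The log2 of the deposited intensities was taken. Of 44629 rows, 15835 had 1 gene symbol in the platform annotation, 0 several and 28794 none. They gave 14812 genes, of which 651 with several rows took the brightest row. Genes under the 25th percentile of mean log2 (5.54) were left out.

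Limma 3.58.1 in R 4.3.3 was fitted to the 11109 tested genes with cell line as a fixed block. The knockdown, the moderated F test over lines and the 6 pairs of lines came from that fit, with Benjamini-Hochberg adjustment over all genes and a threshold of 0.05. Labels pair the arrays by line, and deviations from the group mean correlated at 0.925 to 0.932 within a line. The fit was tested on simulated data. The named genes were MAF, MYC, every tested member of the MAF family, MAF-linked and MYC network lists, and from other lists the 2 with the smallest knockdown p and the 3 with the widest line range, beside genes ranked by r. WASHC5, HERC4, UBE2O, USP7 and IRF4 fall outside that rule and were named after their values were seen. Members and lists were chosen with earlier results of these data known.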

Additional observations from a re-analysis of the deposited data

Results flagged for a closer look

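Of 74 sets of 4 line values, namely knockdown differences of genes named from the lists, of NSD2 and of GLO1, and the levels of MAF and MYC by condition, 2 had a line far from the rest, and chance alone gives about 5% of groups. The knockdown difference of MLXIPL was -0.50 in KMS11, apart from -0.07 to 0.01 in the other lines. That of MXD3 on its brighter row was 0.16 in KMS18, apart from -0.19 to -0.14 elsewhere. On its dimmer row MXD3 rose in KMS18 (80.9 to 98.9), but also in KMS34 (84.4 to 96.1) and slightly in OPM2 (85.3 to 86.6). For MAF the knockdown difference was 0.30 in KMS11 but -0.41 in KMS18, each past 1.2-fold, and with 1 pair of arrays per line this difference was not tested.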

How the results depend on the processing

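Settings were changed one at a time, except that trend and robust eBayes were set together. The 4 results on MAF and MYC, their knockdown differences and their line ranges, kept their side of the threshold under each alternative run. The adjusted p of the knockdown was 0.779 or more for MAF and 0.850 or more for MYC over 14 alternatives each. The direction of MAF changed once, to 0.075 without KMS18, and leaving out each line in turn gave -0.16 to 0.075. Of 120 line pair values under alternatives 119 kept their direction and side, and the other is the MYC value given above. The count of genes called for the knockdown, 13, was 4 without a filter on dim genes, 29 with trend and robust eBayes, 1 to 2 when a line was left out, 3 with cell line as a random block (estimated correlation), and 0 with no replicate block, where 18 genes had an unadjusted p under 0.05. The cause was not tested. Leaving out any 1 line cut these calls by over 1.5 times (KMS11 2, KMS18 1, KMS34 2, OPM2 1). The paired fit is the main one. Of the list genes, 0 were called under each setting run. Detection calls were not used here, so whether MAF in KMS18 was above background cannot be stated.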
